A study of Mus musculus with 2 samples.

Results

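Genes of ribosome biogenesis and of the RNA exosome were examined in cultured mouse keratinocytes with and without a conditional deletion of Pp6, the catalytic subunit gene of protein phosphatase 6 (listed as Ppp6c). The members were all protein-coding genes whose symbol is Rrp, Utp, Exosc, Nop, Nol, Pop or Bop followed by digits, with or without letters after them. Such letters brought in Utp14a, Utp14b, Rrp7a, Rrp1b and Nol4l. Added by name were Fbl, Dkc1, Gar1, Nhp2, Ncl, Npm1, Pes1, Wdr12, Polr1a, Polr1b, Ubtf, Rrn3 and Myc. This gave 63 of the 47719 genes in the deposited table. Exosc6 is not analysed here. The data are 1 library of genotype K5.Pp6fl/fl, labelled a conditional knockout, with K5 read here as the keratin 5 promoter of basal keratinocytes, and 1 library of genotype Pp6fl/fl, which carries the floxed allele too. For both genotypes, tail keratinocytes of C57BL/6J mice (age 8 weeks) were kept for 3 days in Medium 154CF. The labels do not give the number of mice behind either culture.

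Ribosomes are assembled in the nucleolus. RNA polymerase I copies the ribosomal DNA into a long precursor, small nucleolar ribonucleoproteins (snoRNPs) guide its chemical modification, and large complexes, among them the small subunit processome, cut it and fold it into the small and the large subunit. The RNA exosome is a complex of exonucleases and their scaffold that trims precursor ends and degrades the excised spacers, and RNase MRP makes 1 of the cuts. The transcription factor MYC is known to drive many of these genes in growing cells, and proliferating basal keratinocytes need a steady supply of ribosomes.

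Estimated reads in genes came to 17361260 for K5.Pp6fl/fl and to 19374770 for Pp6fl/fl. Levels are given as CPM, counts scaled to a common library size by TMM, and each fold is CPM in K5.Pp6fl/fl over CPM in Pp6fl/fl with a 95% interval. With 1 library per genotype no test between genotypes was possible, and the intervals cover counting error only. Ppp6c, the targeted gene, had 40.7 CPM in K5.Pp6fl/fl and 55.5 CPM in Pp6fl/fl, a fold of 0.733 (0.665 to 0.807). Most of the Ppp6c transcript was thus still counted in the library labelled K5.Pp6fl/fl, and the deleted part of the gene was not measured apart from the rest. All 8 keratinocyte markers were expressed, with summed levels of 54480 CPM in K5.Pp6fl/fl and 57960 CPM in Pp6fl/fl. None of 6 fibroblast, 5 endothelial and 4 muscle markers reached 1 CPM. Melanocyte markers, of which 5 of 6 were expressed and none was at 0, summed to 21.3 CPM in K5.Pp6fl/fl and 14.4 CPM in Pp6fl/fl. Of 6 immune markers 1 was expressed and Ptprc, Cd3e, Cd207, Cd74 and Lyz2 had no reads, with sums of 24.97 and 29.71 CPM in K5.Pp6fl/fl and Pp6fl/fl. The part of these other cell types in the results was not tested.

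The members as a group stood slightly lower in the K5.Pp6fl/fl library, by a few percent for most genes. Of 63 members 62 were expressed, which means at least 1 CPM in either library, and 48 of these (77.4%) had a log2 ratio below 0, against 53.1% of the 12326 expressed genes of the table. The median log2 ratio was -0.10, a fold of 0.935, where the median over all expressed genes was -0.01. The interval lay below 1 for 29 members (46.8%), against 17.4% of all expressed genes, and above 1 for 4 members (6.45%), against 16.6%. Intervals narrow with depth, so genes at the members' own levels are the closer comparison. Among 7212 genes at 19.1 to 339 CPM, the middle 90% of the members' range, 56.2% had a log2 ratio below 0, 21.7% an interval below 1 and 17.9% an interval above 1, while of the 54 members in that range 45, 27 and 2 did. These counts describe 2 libraries and are no test of the group. In bulk RNA fewer cells of a type and less RNA per cell cannot be told apart, and CPM, being shares of a library, do not show the total RNA per cell.

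**Figure D1:**
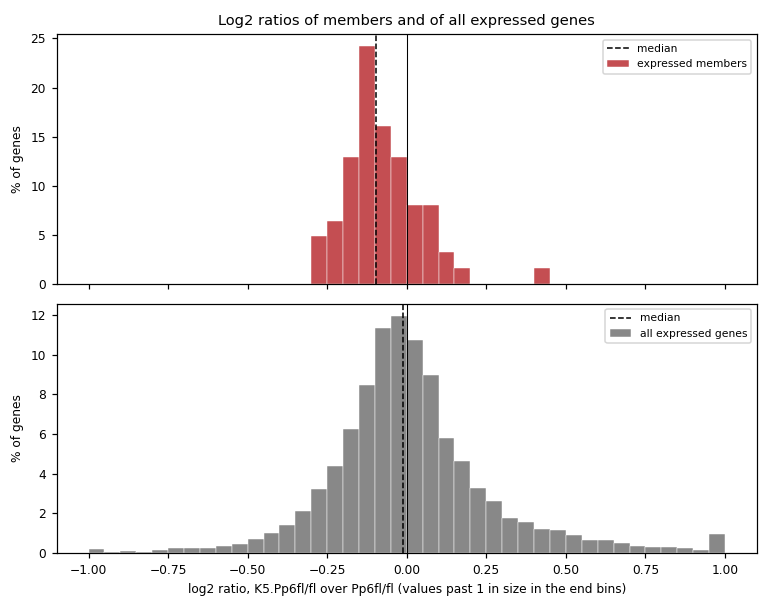
Log2 ratios (K5.Pp6fl/fl over Pp6fl/fl, from CPM) on the horizontal axis, as the percentage of 62 expressed members (top) and of 12326 expressed genes (bottom). Bars are bins of 0.05, values past 1 in size stand in the end bins, and dashed lines mark the medians of -0.10 and -0.01.

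The differences were small in size. A gene was counted as lower or higher when its log2 ratio, taken after adding 0.5 CPM to both values, reached a fold of 1.2, its larger value was at least 1 CPM and its interval excluded 1. By this rule 3 members were lower, Utp14a, Exosc3 and Myc, or 4.84% of the members against 6.13% of all expressed genes. No member was higher, against 9.07% of all expressed genes. None differed by 2-fold, where 0.195% of expressed genes were lower and 0.811% higher by that much. Next to the threshold, Myc at a log2 ratio of -0.27 was just inside and Exosc10 at -0.24 and Nol6 at -0.23 were just outside. The share past 1.2-fold lower was thus near that of all genes, and the share past 1.2-fold higher was below it. Most members were lower by less than 1.2-fold. The log2 ratios of all expressed members had an SD of 0.12, against 0.28 over all expressed genes and 0.19 over genes at the members' levels.

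**Figure D2:**
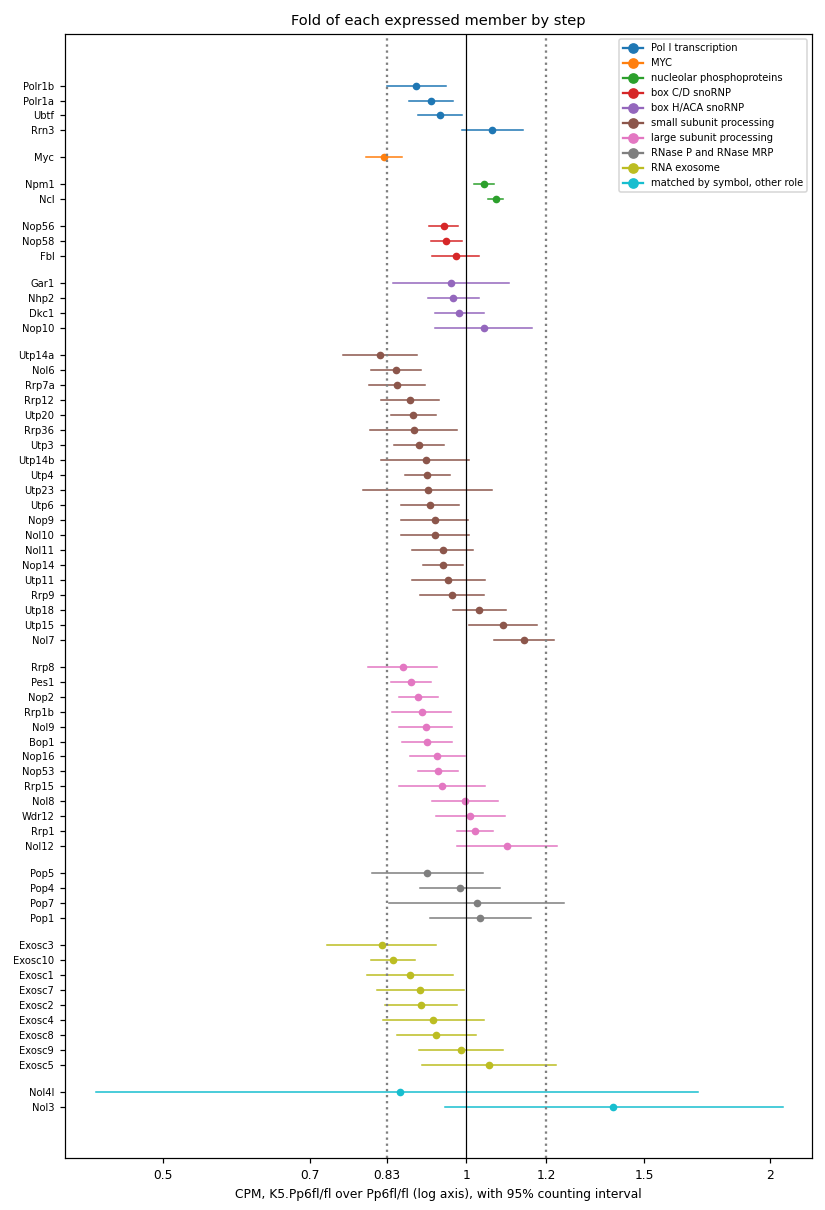
Fold (K5.Pp6fl/fl over Pp6fl/fl, from CPM) on a log axis for the 62 expressed members, grouped by step. Points are folds, lines are 95% counting intervals of 1 library each, and dotted lines mark 1.2-fold in either direction. Most points lie between 0.83 and 1, and Ncl, Npm1, Utp15 and Nol7 are the members with an interval above 1.

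Myc, the transcription factor upstream of many of these genes, had 3924 reads in the K5.Pp6fl/fl library and 5274 in the Pp6fl/fl library, or 226 and 273 CPM. It was lower in K5.Pp6fl/fl by 17.2%, at a fold of 0.828 (0.795 to 0.863), and by FPKM, the deposited value per gene length and depth, the fold was 0.824. The authors' deposited table gives it an FDR of 6.41e-05 at a log2 fold change of -0.28, a value computed from 1 library per genotype. Among 12 expressed genes of the MYC network, Mxd1, whose protein competes with MYC for its partner MAX and represses MYC targets, was past 1.2-fold higher, 1 of 12 where 9.07% of all expressed genes were. It had 70.0 CPM in K5.Pp6fl/fl and 46.8 CPM in Pp6fl/fl, a fold of 1.496 (1.37 to 1.63). Max itself was at 61.7 CPM in K5.Pp6fl/fl and 53.2 CPM in Pp6fl/fl, a fold of 1.16 (1.06 to 1.26), while the MAX-binding repressor Mga and the MYC partner Zbtb17 were at 0.883 (0.838 to 0.930) and 0.886 (0.804 to 0.975). The list as a whole had a median log2 ratio of 0.07, with 8 genes above 0 and 4 below. Mycn, the related MYC family gene, had 5 reads in K5.Pp6fl/fl and 4 in Pp6fl/fl, under 1 CPM.

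MYC and MAX bind the letters CACGTG (the E-box, which reads the same on both strands), so the promoters were searched for them. RefSeq windows of 300 bases, 250 before and 50 after a gene's start, were at hand for 48 members. CACGTG stood in a window of 10 of these (20.8%), against 12.2% of 9226 expressed genes and 8.09% of all 27025 genes in the promoter table. Some genes have several windows, and among genes with a single window the shares were 10 of 40 members (25%) and 10.8% of 7347 expressed genes. The 250 upstream bases of 4 members with the letters are shown, 2 from members lower in K5.Pp6fl/fl (Rrp7a and Nop2) and 2 from members with a fold above 1 (Rrn3 and Exosc5). Capitals mark CACGTG.
Rrp7a, GRCm38.p6, chr15:83122802-83123051, minus strand: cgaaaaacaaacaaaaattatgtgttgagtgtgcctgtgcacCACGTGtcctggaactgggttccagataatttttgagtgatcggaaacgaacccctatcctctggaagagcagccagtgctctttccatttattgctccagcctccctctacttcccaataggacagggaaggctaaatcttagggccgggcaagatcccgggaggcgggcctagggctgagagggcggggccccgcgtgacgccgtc
Nop2, GRCm38.p6, chr6:125131633-125131882, plus strand: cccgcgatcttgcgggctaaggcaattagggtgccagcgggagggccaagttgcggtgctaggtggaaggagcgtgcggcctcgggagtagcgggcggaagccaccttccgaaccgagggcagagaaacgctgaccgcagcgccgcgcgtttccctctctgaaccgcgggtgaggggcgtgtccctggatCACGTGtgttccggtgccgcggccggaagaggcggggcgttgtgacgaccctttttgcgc
Rrn3, GRCm38.p6, chr16:13780449-13780698, plus strand: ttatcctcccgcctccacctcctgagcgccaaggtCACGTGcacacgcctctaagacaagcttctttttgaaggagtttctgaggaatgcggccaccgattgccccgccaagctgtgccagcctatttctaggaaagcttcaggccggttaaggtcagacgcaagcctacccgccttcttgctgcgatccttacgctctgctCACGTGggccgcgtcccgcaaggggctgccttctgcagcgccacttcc
Exosc5, GRCm38.p6, chr7:25658903-25659152, plus strand: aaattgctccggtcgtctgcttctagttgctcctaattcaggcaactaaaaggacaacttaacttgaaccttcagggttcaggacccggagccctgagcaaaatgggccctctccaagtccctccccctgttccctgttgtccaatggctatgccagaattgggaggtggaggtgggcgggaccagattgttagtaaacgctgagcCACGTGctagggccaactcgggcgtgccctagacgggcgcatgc
The letters began 208 bases before the start in Rrp7a, 60 in Nop2 and 44 in Exosc5, and Rrn3 held them at 215 and at 48 bases. The 10 members with CACGTG had a median log2 ratio of -0.13 (7 below 0, 3 above), and the 38 without it -0.09 (30 below 0, 8 above). A match of letters is not a bound site, and no binding was measured.

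RNA polymerase I genes were lower in 3 of 4 cases. The catalytic subunit Polr1a had 161 CPM in K5.Pp6fl/fl and 175 CPM in Pp6fl/fl, a fold of 0.922 (0.876 to 0.969). The second-largest subunit Polr1b had 91.0 CPM in K5.Pp6fl/fl and 102 CPM in Pp6fl/fl, a fold of 0.892 (0.835 to 0.954). Ubtf, which binds the ribosomal DNA and keeps it open, had 164 CPM in K5.Pp6fl/fl and 174 CPM in Pp6fl/fl, a fold of 0.941 (0.894 to 0.989). Rrn3, which couples the polymerase to its promoter and whose sequence with 2 E-boxes is given above, went the other way. It had 90.6 CPM in K5.Pp6fl/fl and 85.4 CPM in Pp6fl/fl, a fold of 1.06 with an interval that included 1 (0.989 to 1.14). Of 19 other Pol I subunits and factors, 14 had a ratio below 0 (53.1% over all expressed genes), 3 were past 1.2-fold lower (6.13% over all) and 1 higher (9.07% over all), with a median log2 ratio of -0.07. The lower ones were Taf1a, a subunit of the promoter factor SL1, at 0.730 (0.631 to 0.845), Polr1c, a subunit shared by polymerases I and III, at 0.813 (0.733 to 0.900), and the TATA-binding protein gene Tbp at 0.817 (0.728 to 0.916). Polr2k, a small subunit shared by the nuclear polymerases, was higher at 1.33 (1.04 to 1.69), from 155 reads in K5.Pp6fl/fl and 130 in Pp6fl/fl.

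The abundant nucleolar proteins nucleolin and nucleophosmin, which help pre-ribosomes fold and move, stood above 1 in fold by counts (Npm1 not once corrected for GC content and length), unlike Nop56 and Nop58, the next most abundant members by CPM. Ncl had 28140 reads in the K5.Pp6fl/fl library and 29313 in the Pp6fl/fl library, or 1619 and 1515 CPM, a fold of 1.07 (1.05 to 1.09). Npm1 had 841 CPM in K5.Pp6fl/fl and 807 CPM in Pp6fl/fl, a fold of 1.04 (1.02 to 1.06). Both intervals lay above 1, on the strength of large counts, and the differences were under 1.1-fold. Corrected for transcript GC content and length, the log2 ratio of Ncl was 0.04 and that of Npm1 -0.01, so the direction of Npm1 depends on the processing. These genes alone held 2460 of the members' 8376 CPM in K5.Pp6fl/fl and 2322 of 8664 CPM in Pp6fl/fl. The reads of all members summed to a fold of 0.967 (0.960 to 0.974), and without Ncl and Npm1 to 0.933 (0.925 to 0.941).

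**Figure D3:**
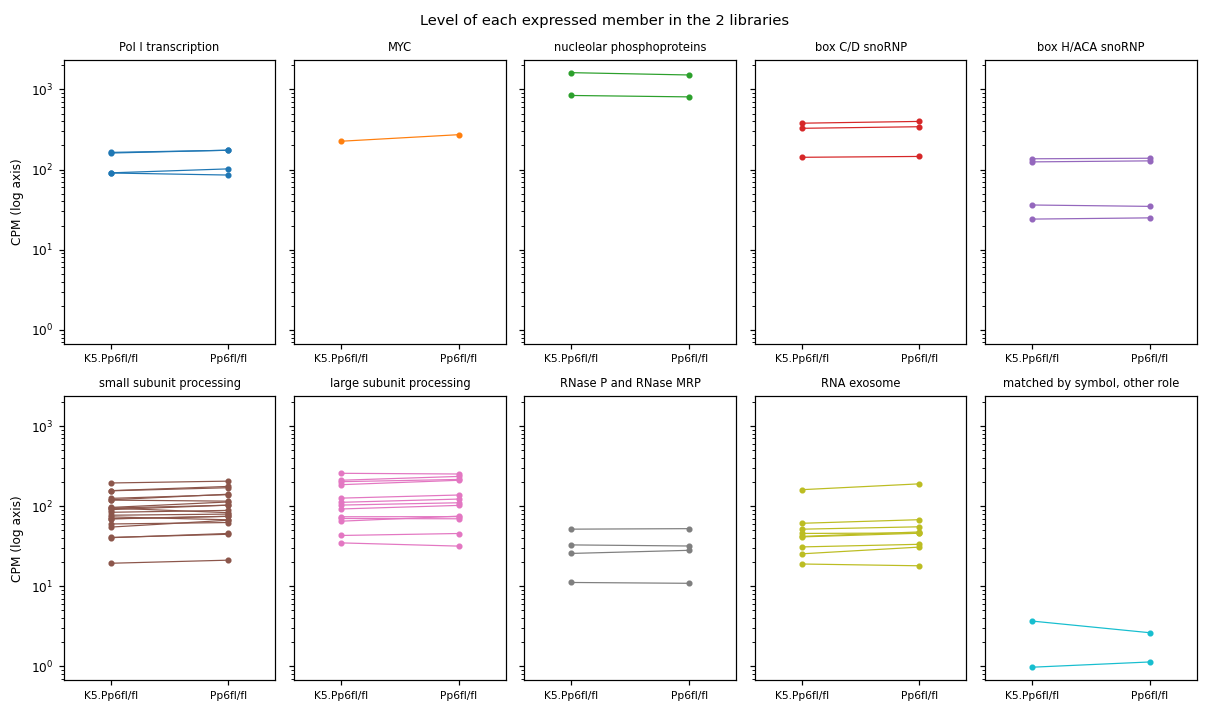
CPM of each expressed member on a log axis in the K5.Pp6fl/fl library (left) and the Pp6fl/fl library (right), 1 panel per step and 1 line per gene. Levels run from 1619 CPM for Ncl to near 1 CPM for Nol4l, and the lines are close to level in every panel.

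Subunits of the snoRNPs differed little. Box C/D snoRNPs methylate ribosomal RNA, with fibrillarin, Fbl, as the enzyme and Nop56 and Nop58 as its scaffold. Nop56 had 379 CPM in K5.Pp6fl/fl and 399 CPM in Pp6fl/fl, a fold of 0.95 (0.919 to 0.982), and Nop58 was at 0.956 (0.922 to 0.990). Fbl had 142 CPM in K5.Pp6fl/fl and 146 CPM in Pp6fl/fl, a fold of 0.976 with an interval that included 1 (0.924 to 1.03). Box H/ACA snoRNPs convert uridine to pseudouridine, with dyskerin, Dkc1, as the enzyme. Dkc1 had 136 CPM in K5.Pp6fl/fl and 139 CPM in Pp6fl/fl, a fold of 0.984 (0.931 to 1.04). Its partners Gar1, Nhp2 and Nop10 were at folds of 0.966, 0.971 and 1.04, and all 4 intervals included 1. Summed over each complex, the reads gave 0.956 (0.935 to 0.978) for box C/D and 0.983 (0.948 to 1.02) for box H/ACA. By FPKM the median log2 ratio of the H/ACA genes was 0.05, against -0.03 by counts, so this complex showed no settled direction.

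Factors of the small ribosomal subunit made up the largest step, and 17 of 20 had a ratio below 0, with a median log2 ratio of -0.12. The interval lay below 1 for 10 and above 1 for 2. Among genes at the members' levels, 56.2% had a ratio below 0, 21.7% an interval below 1 and 17.9% an interval above 1. The lowest was Utp14a, a processome protein needed for its final rearrangement, with 953 reads in K5.Pp6fl/fl and 1292 in Pp6fl/fl. Its levels were 54.8 CPM in K5.Pp6fl/fl and 66.8 CPM in Pp6fl/fl, a fold of 0.821 (0.754 to 0.894). A non-coding gene on the opposite strand, 9530027J09Rik, overlaps it, and the kit did not mark strand. The sum of both genes was at 0.837 (0.772 to 0.908). Nol6, the relative of yeast Utp22, had 120 CPM in K5.Pp6fl/fl and 141 CPM in Pp6fl/fl, a fold of 0.852 (0.805 to 0.902). Rrp7a, whose yeast relative sits in the same subcomplex as Utp22, had 96.4 CPM in K5.Pp6fl/fl and 113 CPM in Pp6fl/fl, a fold of 0.854 (0.801 to 0.911). These genes were the lowest of the step after Utp14a.

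The remaining small subunit genes formed a continuous range. Rrp12, known from yeast for export of pre-ribosomes, and the large scaffold Utp20 were at 0.879 (0.823 to 0.940) and 0.886 (0.842 to 0.932). Rrp36, Utp3, Utp4 and Utp6 stood between 0.886 and 0.921 with intervals below 1. Nop14, with 195 CPM in K5.Pp6fl/fl and 205 CPM in Pp6fl/fl, had the highest count of the step and a fold of 0.948 (0.905 to 0.993). For Utp23, Nop9, Nol10, Nol11, Utp11 and Rrp9, a protein of the U3 snoRNP, folds of 0.915 to 0.968 came with intervals that included 1. Utp14b was at 0.912 (0.824 to 1.01). It shares exons with Acsl3 on the same strand and was the 1 expressed member whose estimated reads were not whole numbers (within 0.1 reads), so its count includes reads split between genes. The sum of both genes was at 1.02 (0.966 to 1.09), in the other direction.

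Above 1 stood Nol7, Utp15 and Utp18, the last at 1.03 (0.970 to 1.09) and at a log2 ratio of -0.03 once corrected for GC content and length. Nol7, a nucleolar protein, had 94.6 CPM in K5.Pp6fl/fl and 82.9 CPM in Pp6fl/fl, a fold of 1.14 (1.06 to 1.22). Its exons overlap those of Ranbp9 on the opposite strand, and the sum of both genes was at 1.11 (1.06 to 1.17). Utp15, of the subcomplex that first binds the nascent transcript, had 73.5 CPM in K5.Pp6fl/fl and 67.6 CPM in Pp6fl/fl, a fold of 1.09 (1.005 to 1.17). Utp4 and Nol11 belong to the same subcomplex and were at 0.915 (0.869 to 0.963) and 0.947 (0.883 to 1.02). Utp15 thus had a fold on the other side of 1 from these genes. Its interval lay above that of Utp4 and overlapped that of Nol11, and the subcomplex as a whole was not summed. Of 34 other small subunit factors, 27 had a ratio below 0 (53.1% over all expressed genes), with a median of -0.07. Their interval lay below 1 for 13 (17.4% over all) and above 1 for 2 (16.6% over all). Among genes at the members' levels these shares were 21.7% and 17.9%. None was past 1.2-fold, where 6.13% of all expressed genes were lower and 9.07% higher.

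Factors of the large subunit had a median log2 ratio of -0.10, with 10 of 13 below 0 (56.2% of genes at the members' levels). Their interval lay below 1 for 8 (21.7% of those genes) and above 1 for none (17.9%). Rrp8, a methyltransferase of ribosomal RNA, was lowest, with 65.0 CPM in K5.Pp6fl/fl and 75.1 CPM in Pp6fl/fl, a fold of 0.865 (0.7996 to 0.936). It overlaps the abundant gene Ilk on the opposite strand, and their sum was at 0.859 (0.820 to 0.901). The PeBoW complex is needed to process the large subunit precursor. Its scaffold Pes1 had 185 CPM in K5.Pp6fl/fl and 210 CPM in Pp6fl/fl, a fold of 0.881 (0.841 to 0.923). Its second subunit Bop1 had 126 CPM in K5.Pp6fl/fl and 138 CPM in Pp6fl/fl, a fold of 0.915 (0.864 to 0.968). The third subunit, Wdr12, had 70.2 CPM in K5.Pp6fl/fl and 69.6 CPM in Pp6fl/fl, a fold of 1.01 (0.933 to 1.09) and a log2 ratio of -0.06 once corrected for GC content and length. Its interval by counts overlapped that of Bop1 and not that of Pes1. Exons of Wdr12 overlap those of Carf on the opposite strand, which had 221 reads in K5.Pp6fl/fl and 169 in Pp6fl/fl. The sum of both genes was at 1.06 (0.9845 to 1.14), and the part of Carf reads in the value of Wdr12 was not tested. Bop1 overlaps Mroh1 on the opposite strand, and the sum of both was at 0.9225 (0.877 to 0.970).

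Nop2, a cytosine methyltransferase of the large subunit RNA whose promoter is shown above, had 211 CPM in K5.Pp6fl/fl and 235 CPM in Pp6fl/fl, a fold of 0.896 (0.858 to 0.937). Nop53, which in yeast brings the exosome's helicase to the pre-60S particle, was at 0.938 (0.896 to 0.981), and Nol9, a kinase of RNA ends at the spacer between the large subunit RNAs, at 0.911 (0.858 to 0.968). Rrp1b and Nop16 were at 0.903 and 0.936 with intervals below 1. Rrp1 was the most abundant of the step by CPM, with 257 CPM in K5.Pp6fl/fl and 252 CPM in Pp6fl/fl, a fold of 1.02 (0.979 to 1.06). Rrp15, Nol8 and Nol12 ran from 0.945 to 1.097, all with intervals that included 1. The 39 other large subunit factors had a median of -0.09, with 30 below 0 (53.1% over all expressed genes). Their interval lay below 1 for 19 (17.4% over all) and above 1 for 1 (16.6% over all). Among genes at the members' levels these shares were 21.7% and 17.9%. Past 1.2-fold was 1 gene of this list, which was lower (6.13% over all), Surf6, a nucleolar protein. It had 52.0 CPM in K5.Pp6fl/fl and 67.1 CPM in Pp6fl/fl, a fold of 0.774 (0.710 to 0.843).

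The RNA exosome had the lowest median of the steps with more than 1 gene, a log2 ratio of -0.15. Of its 9 genes 8 were below 0, against 53.1% of all expressed genes. Its reads summed to 8304 in K5.Pp6fl/fl and 10356 in Pp6fl/fl, a fold of 0.893 (0.867 to 0.919). Exosc10, the nuclear exonuclease of the complex and its most abundant member, had 2791 reads in K5.Pp6fl/fl and 3674 in Pp6fl/fl, or 161 and 190 CPM. Its fold was 0.846 (0.805 to 0.889), and 0.802 by FPKM. The cap, made of RNA-binding proteins, was lower in each of its 3 genes. Exosc3 had 25.4 CPM in K5.Pp6fl/fl and 30.9 CPM in Pp6fl/fl, a fold of 0.824 (0.727 to 0.934). Adding 2 CPM in place of 0.5 before the log put it at a log2 ratio of -0.26, short of 1.2-fold. Its exons overlap those of Dcaf10 on the opposite strand, and the sum of both was at 0.887 (0.815 to 0.965). Exosc1 and Exosc2 were at 0.879 (0.797 to 0.970) and 0.902 (0.831 to 0.979).

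The ring of RNase PH-like subunits had folds nearer to 1. Of its 5 measured genes Exosc7 had an interval below 1, with 41.4 CPM in K5.Pp6fl/fl and 45.9 CPM in Pp6fl/fl, a fold of 0.900 (0.815 to 0.994). Exosc4 and Exosc8 were at 0.927 and 0.933, and Exosc9 at 0.988 (0.897 to 1.09), each with an interval that included 1. Exosc9 overlaps Ccna2, the cyclin A2 gene, on the opposite strand, and Ccna2 had 2660 reads in K5.Pp6fl/fl and 2053 in Pp6fl/fl. The sum of both genes was at 1.30 (1.24 to 1.37), with most of its reads from Ccna2. The part of Ccna2 reads in the value of Exosc9 was not tested. Exosc4 and Exosc8 also overlap genes on the opposite strand. Exosc4 with Oplah summed to 0.904 (0.834 to 0.981), and Exosc8 with Supt20 to 0.964 (0.908 to 1.02). Exosc5 had 19.0 CPM in K5.Pp6fl/fl and 18.0 CPM in Pp6fl/fl, a fold of 1.05 (0.903 to 1.23). Summed, the ring was at 0.948 (0.905 to 0.994) and the cap at 0.878 (0.8304 to 0.929), and these intervals overlap. By FPKM, which allows levels of different genes to be set side by side, the exosome genes ran from 20.8 (Exosc4) to 65.7 (Exosc10) in K5.Pp6fl/fl and from 22.4 (Exosc4) to 81.8 (Exosc10) in Pp6fl/fl, with Exosc7 and Exosc8 next below Exosc10 in both libraries.

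The partners of the exosome did not share its lower median. The 14 expressed cofactors and catalytic partners had a median log2 ratio of -0.01, with 8 below 0 (53.1% over all expressed genes) and 6 above. Their interval lay below 1 for 1 (17.4% over all) and above 1 for 4 (16.6% over all). None was past 1.2-fold, where 6.13% of all expressed genes were lower and 9.07% higher. The catalytic subunit Dis3 had 89.6 CPM in K5.Pp6fl/fl and 93.0 CPM in Pp6fl/fl, a fold of 0.963 (0.899 to 1.03). The nuclear helicase Mtrex was at 0.996 (0.945 to 1.05), and the poly(A) polymerases Tent4b and Tent4a, which tag RNA for the exosome, were at 1.13 (1.04 to 1.22) and 1.104 (1.002 to 1.22). By FPKM Tent4b was at 1.02 and Tent4a at 1.125. The summed reads of all 14 genes gave a fold of 1.01 (0.990 to 1.03).

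**Figure D4:**
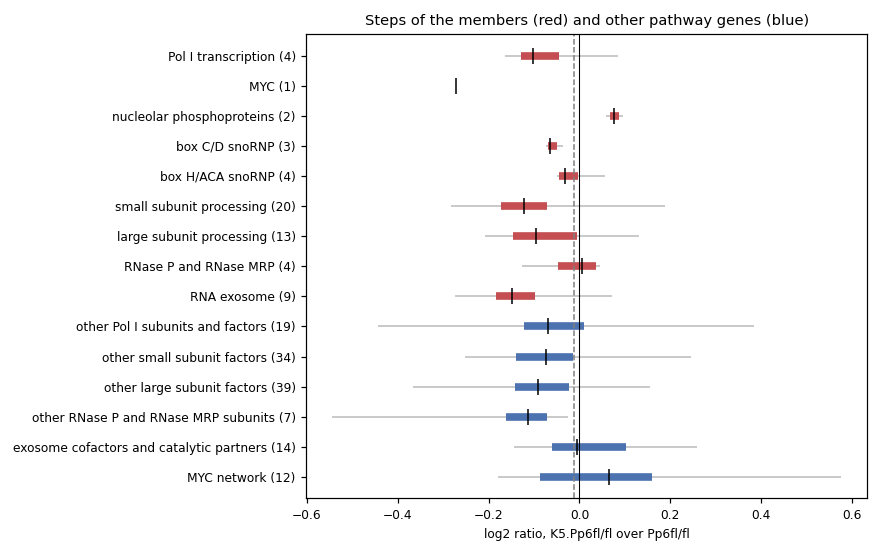
Log2 ratios, K5.Pp6fl/fl over Pp6fl/fl, of the members by step (red) and of other genes of the pathway (blue), with the number of expressed genes in brackets. Black ticks are medians, thick bars the middle 50% of genes and grey lines the full range, and the dashed line is the median of all expressed genes, -0.01. The exosome median is at -0.15 and that of its cofactors at -0.01.

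Proteins of RNase P, which matures transfer RNA, and of the related RNase MRP were near equal. Pop4 had 51.7 CPM in K5.Pp6fl/fl and 52.4 CPM in Pp6fl/fl, a fold of 0.986 (0.900 to 1.08), and Pop1, Pop5 and Pop7 were at 1.03, 0.915 and 1.02. All 4 intervals included 1, and the median log2 ratio was 0.01, with values just below 0 by FPKM and after the correction for GC content and length. The 7 other subunits had ratios below 0 (53.1% over all expressed genes), with a median of -0.11, but counts are low. Only 1 interval lay below 1 (17.4% over all), that of Rpp25 at 0.649 (0.447 to 0.935), from 49 reads in K5.Pp6fl/fl and 84 in Pp6fl/fl.

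Among the genes that the symbols alone brought in, Nol3 encodes an inhibitor of apoptosis and has no known place in ribosome assembly. It had 64 reads in K5.Pp6fl/fl and 51 in Pp6fl/fl, a fold of 1.397 (0.952 to 2.06). Nol4l had 17 reads in K5.Pp6fl/fl and 22 in Pp6fl/fl, and Nol4 had 0 and 1. Leaving these genes out gave 47 of 60 below 0 and the same median of -0.10.

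The deposited FPKM values also carry a gene length estimated for each library, which moves with the mix of isoforms. By FPKM 44 of the 62 members were below 0, and 4 changed sign, Utp6, Gar1, Dkc1 and Nol8. For 6 members the log2 ratios by FPKM and by counts differed by over 0.1. The widest gaps were those of Pop1, at 16.2 FPKM in K5.Pp6fl/fl and 11.6 FPKM in Pp6fl/fl (1.399-fold by FPKM, 1.03-fold by counts), and of Utp6, at 45.8 FPKM in K5.Pp6fl/fl and 37.9 FPKM in Pp6fl/fl (1.21-fold by FPKM, 0.921-fold by counts). For the members named as at least 1.2-fold lower, the measures gave nearly the same folds, with 0.826 by FPKM for Utp14a and 0.827 for Exosc3.

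**Figure D5:**
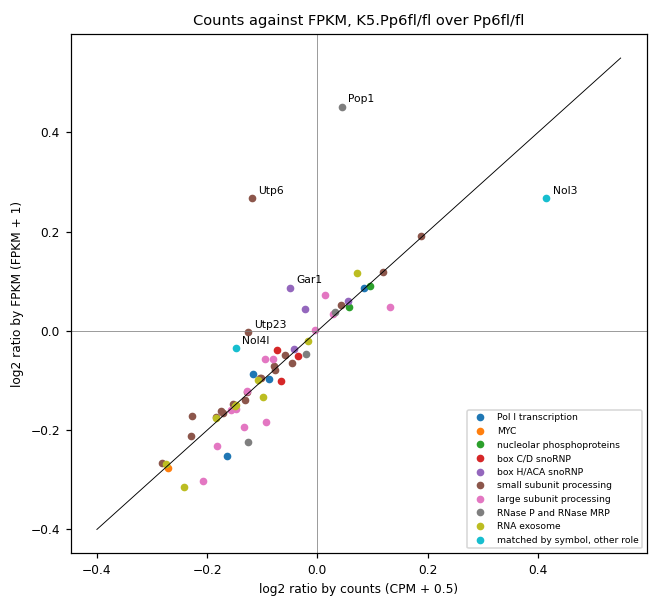
Log2 ratio by FPKM (vertical, after adding 1 FPKM) against log2 ratio by counts (horizontal, after adding 0.5 CPM) for the 62 expressed members, coloured by step. The line marks equal values, names are given where the ratios differ by over 0.1, and Pop1 and Utp6 lie farthest above the line.

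In the authors' deposited table, counts of members were 7 with an FDR under 0.05 and a negative log2 fold change, or 11.3% against 5.5% of expressed genes, and 1 with such an FDR and a positive one, or 1.61% against 8.86%. According to the authors' deposited table the lower ones included Myc, Exosc10 (log2 fold change -0.32, FDR 0.00144), Utp14a (-0.28, FDR 0.00525) and Nol6 (-0.22, FDR 0.00565), and the higher one was Nol7 (0.19, FDR 0.0339). These FDR values rest on 1 library per genotype, and the sources used here do not give the spread assumed for them.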

How the data were processed

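For each Ensembl gene the deposited table gives FPKM and an estimated count in both libraries, and the authors' log2 fold change, p-value and FDR. The submitters' processing notes name RSEM, edgeR and mm8 without versions or roles. The deposited estimated counts had been multiplied by 1 constant per library (0.945742 for Pp6fl/fl, 1.05737 for K5.Pp6fl/fl); dividing by it gave whole numbers, within 0.01 reads, for 97.3% and 97.4% of values under 100 reads. These reads, rounded, were scaled by TMM (edgeR 4.0.16, R 4.3.3). The design had assumed unscaled counts. Symbols, biotypes and overlaps come from GENCODE M21 (GRCm38) by gene ID, with 47305 of 47719 IDs matched, and promoters from RefSeq (GRCm38.p6) by symbol; no coordinates were moved between builds. Intervals are exact conditional binomial (Clopper-Pearson) and leave out all error but counting, and even that in part, as PCR copies were not marked by molecular identifiers. The calculations were tested on simulated data. Members, steps and pathway lists were chosen with earlier results of these data known. Named genes are all members, the most abundant, the 1.2-fold ones and Myc in full, and per pathway list up to 3 past 1.2-fold. Max, Mga, Zbtb17, Mycn, Dis3, Mtrex, C1d, Zcchc7, Tent4a and Tent4b were chosen after their values were seen. Alternatives covered scaling, pseudocount, floor, fold, FPKM, GC content and length, and membership.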

Additional observations from a re-analysis of the deposited data

How the results depend on the processing

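With DESeq2 size factors, library totals, a pseudocount of 0.1 or 2 CPM, and a floor of 5 CPM or none, the median log2 ratio of the members stayed between -0.09 and -0.10 and 47 to 49 members were below 0. The count past the fold rule moved with the threshold, to 18 lower and 1 higher at 1.1-fold and to 0 lower at 1.5-fold. With a pseudocount of 2 CPM it was 2 lower, as Exosc3 no longer passed. By FPKM, with no counting interval, it was 5 lower and 3 higher. Taking only symbols that end in digits left out Utp14a, Utp14b, Rrp7a, Rrp1b and Nol4l. Then 2 members were past 1.2-fold lower and 43 were below 0, with a median log2 ratio of -0.09. Corrected for GC content and length, 51 members were below 0, with a median log2 ratio of -0.10. The small subunit median was then -0.16 and the exosome median -0.17, against -0.12 and -0.15. That of Ncl and Npm1 was 0.015, against 0.08. Leaving out the 21 members whose exons overlap another gene with reads, an alternative chosen after seeing the data, left 31 of 41 below 0. It left 1 gene, Myc, past 1.2-fold lower, since Utp14a and Exosc3 were themselves among the members left out. No paired analysis was possible because each genotype has 1 library, and no library could be left out for the same reason. Depth limits the low genes most: the log2 interval reached 0.10 to either side for the median member and 0.99 for Nol4l.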

Other observations

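Across the 62 expressed members the log2 ratio had a Pearson r of -0.17 with log2 CPM, a description over genes that share the same 2 libraries. Of the 113 other expressed genes of ribosome biogenesis, RNase P and the exosome, 86 had a log2 ratio below 0, against 53.1% of all expressed genes, and 5 were past 1.2-fold lower, against 6.13%. Their interval lay below 1 for 39 (17.4% over all), above 1 for 8 (16.6% over all) and included 1 for 66. Among genes at 19.1 to 339 CPM, the shares below and above 1 were 21.7% and 17.9%. The median log2 ratio was -0.07, and summed reads were at a fold of 0.948 (0.942 to 0.954).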
